A study of Mus musculus with 26 samples.

Results

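The 10 genes described here encode matrix metalloproteases (Mmp2, Mmp13, Mmp14, Mmp23), tissue inhibitors of metalloproteases (Timp1, Timp2, Timp3) and enzymes that crosslink collagen and elastin (Lox, Loxl1, Loxl2). They were found in the table of 55642 genes by Ensembl ID: ENSMUSG00000001131 for Timp1, ENSMUSG00000017466 for Timp2, ENSMUSG00000020044 for Timp3, ENSMUSG00000031740 for Mmp2, ENSMUSG00000050578 for Mmp13, ENSMUSG00000000957 for Mmp14, ENSMUSG00000029061 for Mmp23, ENSMUSG00000024529 for Lox, ENSMUSG00000032334 for Loxl1 and ENSMUSG00000034205 for Loxl2. All 10 were among the 17104 genes that passed the filter on low counts.

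Scar tissue in the liver is made mainly by hepatic stellate cells, which turn into collagen-secreting myofibroblasts after injury. Metalloproteases cut collagens and other matrix proteins and carry a zinc ion in the active site, and TIMPs bind that site and block it. Lysyl oxidases act outside the cell, where they oxidise lysine residues of collagen and elastin so that neighbouring fibres become bonded and harder to digest. A scar therefore depends on the supply of collagen, on the proteases and their inhibitors, and on crosslinking.

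RNA was sequenced from 26 mouse liver samples. Homozygous Mtarc1 knockout mice (n = 8), heterozygous Mtarc1 knockout mice (n = 7) and wildtype mice (n = 6) had been on CDAHFD for 2 weeks, a high-fat feed of defined amino acids without choline. The remaining samples came from wildtype mice on control chow (n = 5). Mtarc1 encodes an amidoxime-reducing enzyme of the outer mitochondrial membrane. Knockout livers on chow were not analysed here, so a difference that the knockout makes on any feed and a changed response to CDAHFD cannot be told apart. The sources used here give no strain, sex, age or design of the knockout allele. The labels number the samples without saying that each is a separate animal, so every p-value measures the spread between these samples, which may be technical.

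Library totals were 19.7 to 29.9 M (mega) estimated counts. Mtarc1 followed the labels, at 48.7 ± 10.4 counts per M (CPM; SD, n = 8) in homozygous, 161 ± 33.7 (n = 7) in heterozygous and 235 ± 40.7 (n = 6) in wildtype CDAHFD livers and at 305 ± 40.2 (n = 5) in wildtype chow livers. Hepatocyte markers, which check the tissue label, summed to between 58645.7 and 119332 CPM in every library. The library names fall in a 9000 range (9 libraries) and an 11000 range (17 libraries). The labels do not call these batches. They hold 2 and 6 homozygous, 3 and 4 heterozygous, 3 and 3 wildtype CDAHFD and 1 and 4 wildtype chow libraries, and each main result is also given within them.

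Promoters in RefSeq annotation of GRCm38.p6 were matched for 6 of the 10 genes (Timp1, Timp2, Timp3, Mmp13, Mmp14 and Mmp23); Mmp2, Lox, Loxl1 and Loxl2 were not matched. The 250 bases before the start site of Mmp13 and Timp1, which had the largest diet differences among the 10 genes, and of Mmp14, which had the smallest, are shown 5′ to 3′ on the plus strand, with capitals for an AP-1 site (TGANTCA) and a TATA box (TATAAA) where present. Mmp13 lies at chr9:7272264-7272513, Timp1 at chrX:20869916-20870165 and Mmp14 at chr14:54431348-54431597.
Mmp13: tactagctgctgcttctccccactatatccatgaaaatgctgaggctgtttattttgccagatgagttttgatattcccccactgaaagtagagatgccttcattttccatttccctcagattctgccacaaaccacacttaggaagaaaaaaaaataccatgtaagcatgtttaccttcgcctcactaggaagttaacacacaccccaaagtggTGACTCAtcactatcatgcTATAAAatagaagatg
Timp1: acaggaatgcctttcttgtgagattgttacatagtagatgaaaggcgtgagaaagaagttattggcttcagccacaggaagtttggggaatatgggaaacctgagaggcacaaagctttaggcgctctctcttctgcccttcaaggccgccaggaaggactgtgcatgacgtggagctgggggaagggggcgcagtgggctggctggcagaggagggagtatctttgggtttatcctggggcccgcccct
Mmp14: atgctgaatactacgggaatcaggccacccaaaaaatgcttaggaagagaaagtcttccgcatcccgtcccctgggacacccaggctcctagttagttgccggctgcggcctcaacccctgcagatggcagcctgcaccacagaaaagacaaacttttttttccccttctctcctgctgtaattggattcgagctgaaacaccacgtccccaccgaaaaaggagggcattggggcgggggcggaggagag

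The AP-1 letters of the Mmp13 window begin 35 bases before the start site and the TATAAA letters 16 bases before it. No other matched promoter among the 6 held either motif on either strand in these 250 bases. In the same 250 bases of 32851 annotated start sites, of which Mmp23 has a pair, 6.75% held TGANTCA and 12.4% held TATAAA. The letters GGGCGG, read by SP1, occurred on either strand in Timp1, Timp2, Timp3 and Mmp14 and in 32.7% of all windows. The SMAD box CAGAC occurred in Mmp23 and in 42.2% of all windows. The NF-kB pattern occurred in none of the 6 and in 17.6% of all. These matches describe letters and not bound factors.

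In wildtype liver, 2 weeks of CDAHFD raised 8 of the 10 transcripts and lowered none. The rises were largest for the collagenase gene Mmp13, the inhibitor gene Timp1 and the lysyl oxidase gene Lox, and smaller for Loxl2, Mmp2, Loxl1, Mmp23 and Timp2. Timp3 and Mmp14 did not pass the test. Calls were made at an adjusted p of 0.05 in edgeR's quasi-likelihood test, with Benjamini-Hochberg adjustment over all 17104 genes. By that rule 27.1% of genes were called, 14.8% higher and 12.2% lower. The median log2 fold change was 1.32 over the 10 genes and -0.01 over all genes tested. The 10 were chosen with earlier results of these data known. Their contrast with all genes is therefore no independent test, here or in the other comparisons. In bulk liver, more cells of a type and more RNA per cell cannot be told apart.

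Among the inhibitors, Timp1 encodes a soluble TIMP that is widely used as a marker of liver scarring. It ranged from 1.73 to 7.23 CPM with a median of 2.80 in wildtype CDAHFD livers, against 0.0534, 0.146, 0.158, 0.552 and 0.754 CPM in the 5 wildtype chow livers, which is 1 to 15 counts. Every CDAHFD liver lay above every chow liver, and the means were 3.78 ± 2.47 CPM (SD, n = 6) on CDAHFD and 0.333 ± 0.304 (n = 5) on chow. The log2 fold change was 3.47 ± 0.54 (SE), with an edgeR adjusted p of 3.08e-05. Timp2, which also takes part in activating the MMP2 proenzyme, ranged from 14.6 to 29.7 CPM with a median of 18.4 on CDAHFD, against 10.5, 12.7, 13.95, 14.3 and 15.9 CPM on chow. The lowest CDAHFD liver overlapped the chow range, and 5 of 6 lay above it. Its log2 fold change was 0.56 ± 0.15, with an edgeR adjusted p of 0.00711. Timp3, whose protein binds the matrix and also inhibits ADAM17, ranged from 17.3 to 24.5 CPM with a median of 18.6 on CDAHFD, against 11.4, 15.8, 16.2, 17.1 and 18.3 CPM on chow. The groups overlapped, and the log2 fold change of 0.32 ± 0.15 was not called (edgeR adjusted p = 0.118).

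Among the proteases, Mmp13 encodes collagenase 3, the main enzyme that cuts fibrillar collagen in rodent liver. It ranged from 2.05 to 8.92 CPM with a median of 4.37 in wildtype CDAHFD livers, against 0.138, 0.201, 0.321, 0.475 and 0.585 CPM in wildtype chow livers. The groups did not overlap, with 51 to 270 counts per CDAHFD library and 3 to 12 per chow library. Mmp13 had the largest log2 fold change of the 10 genes, 3.91 ± 0.60 (SE; edgeR adjusted p = 2.90e-05). Mmp2 encodes gelatinase A, which digests denatured collagen and basement membrane. It ranged from 4.75 to 14.97 CPM with a median of 6.43 on CDAHFD, against 2.06, 2.68, 2.76, 3.04 and 4.38 CPM on chow, again without overlap. Its log2 fold change was 1.43 ± 0.27, with an edgeR adjusted p of 0.00031. Mmp23, a membrane-anchored member without the usual hemopexin domain, ranged from 2.73 to 5.71 CPM with a median of 3.40 on CDAHFD, against 1.29, 1.39, 2.05, 2.06 and 2.91 CPM on chow. Only 3 of the 6 CDAHFD livers lay above the chow range, and the log2 fold change was 0.96 ± 0.22 (edgeR adjusted p = 0.00151).

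Mmp14 encodes the membrane-bound collagenase that activates the MMP2 proenzyme. It ranged from 51.6 to 78.7 CPM with a median of 58.6 on CDAHFD, against 44.1, 45.9, 50.8, 56.5 and 63.0 CPM on chow. The groups overlapped and the log2 fold change of 0.21 ± 0.15 was not called (edgeR adjusted p = 0.335). The transcripts of the gelatinase and of its activator thus had different calls in the same livers, a difference between genes that was not itself tested.

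Among the crosslinkers, Lox, the founding lysyl oxidase, ranged from 1.42 to 9.16 CPM with a median of 2.57 in wildtype CDAHFD livers, against 0.368, 0.588, 0.633, 0.804 and 0.951 CPM in wildtype chow livers. The groups did not overlap, and the mean on CDAHFD was 5.97 times the chow mean. Its log2 fold change was 2.58 ± 0.43 (SE; edgeR adjusted p = 7.80e-05). Loxl1, best known for its part in elastic fibres, ranged from 4.58 to 11.1 CPM with a median of 5.77 on CDAHFD, against 2.14, 2.44, 3.26, 3.49 and 3.97 CPM on chow. Loxl2, which also acts on basement membrane collagen, ranged from 8.91 to 23.5 CPM with a median of 10.4 on CDAHFD, against 3.95, 4.17, 4.56, 5.43 and 5.77 CPM on chow. Neither gene's groups overlapped, with log2 fold changes of 1.20 ± 0.25 for Loxl1 (edgeR adjusted p = 0.000617) and 1.48 ± 0.19 for Loxl2 (edgeR adjusted p = 4.27e-06). In all, 6 of the 10 genes (Timp1, Mmp2, Mmp13, Lox, Loxl1 and Loxl2) had every CDAHFD liver above every chow liver, as did 7.95% of all genes tested.

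**Figure D1:**
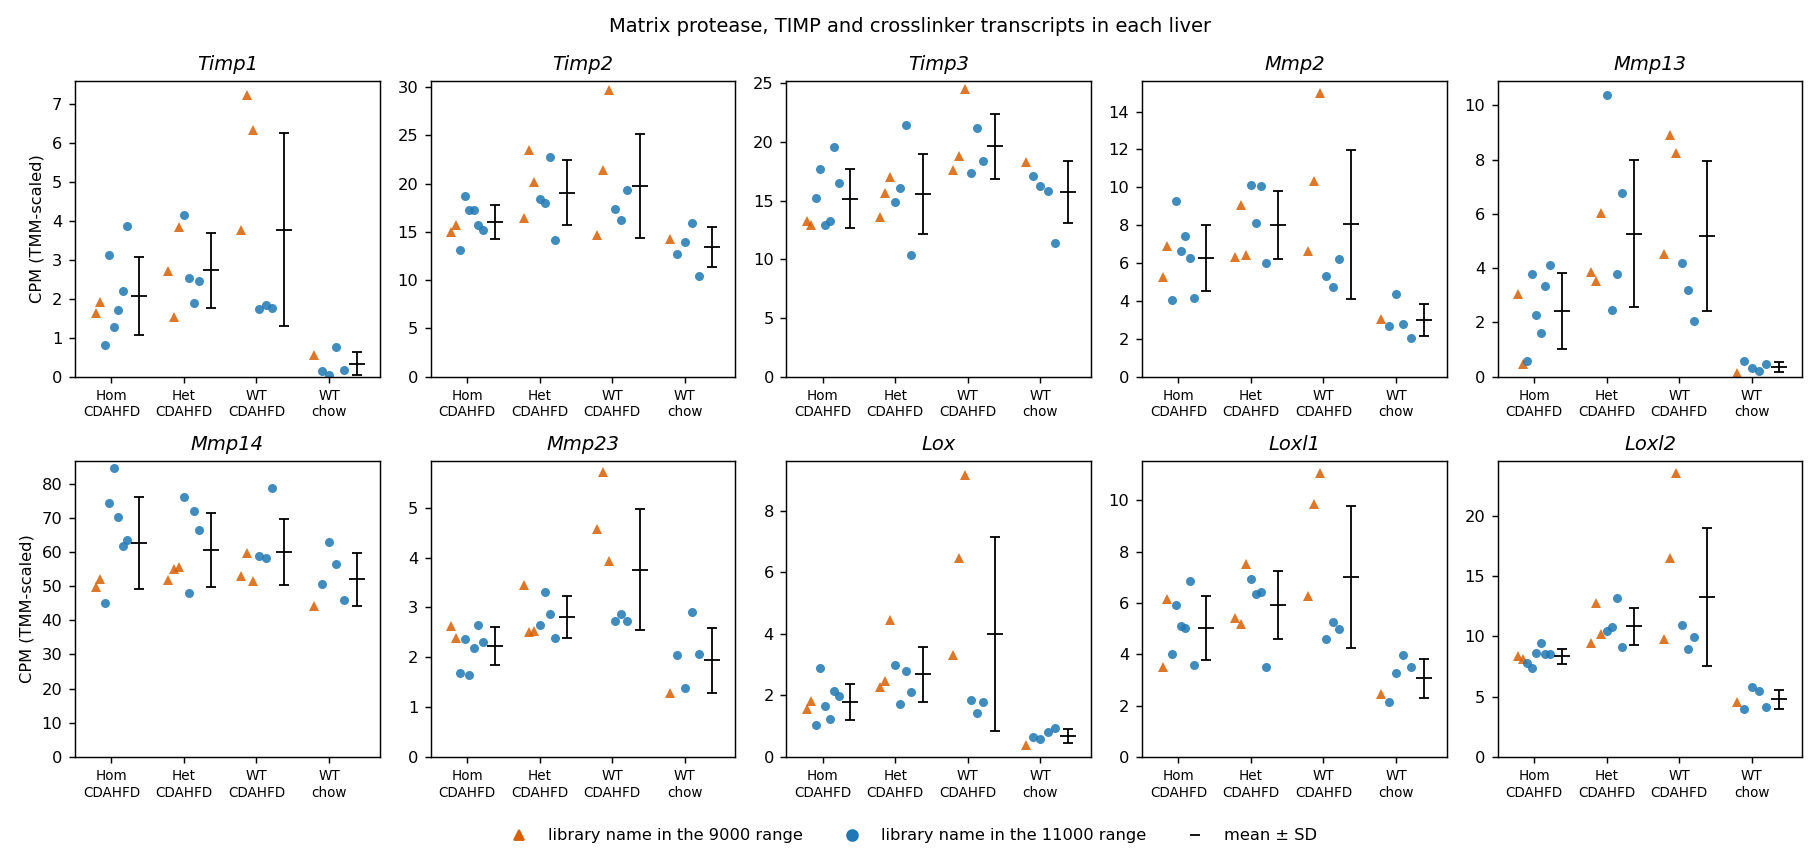
Level of each of the 10 genes in every library, in CPM on scaled library sizes (vertical axes start at 0 and differ between panels), for homozygous, heterozygous and wildtype CDAHFD livers and wildtype chow livers. Triangles are libraries named in the 9000 range and circles those in the 11000 range, with the group mean ± SD to the right of each group; for Lox the highest wildtype CDAHFD library is at 9.16 CPM and the highest chow library at 0.951 CPM.

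The plot of levels by library shows that wildtype CDAHFD livers were not alike. Wildtype CDAHFD replicates 2 and 3, both in the 9000 range, were the group's highest library in 3 and 6 of the 10 genes. Mmp14 differed, with its highest value in replicate 6. Within the 11000 range (3 CDAHFD and 4 chow libraries) all 10 differences were above 0, with a median of 0.77 on the log2 scale, and within the 9000 range (3 and 1 libraries) all 10 were above 0 with a median of 1.78. Fitted on the 11000 libraries alone, edgeR called 4 of the 10 genes, Timp1 at 2.64, Mmp13 at 2.98, Lox at 1.17 and Loxl2 at 1.04, and 13.2% of all genes. In that fit on the 11000 libraries Mmp2 (0.87, adjusted p = 0.0529), Timp2 (0.42, 0.0953), Loxl1 (0.62, 0.12) and Mmp23 (0.40, 0.281) missed the threshold. On the 9000 libraries alone, with 1 chow library, edgeR called 3 of the 10 (Timp1, Mmp23 and Lox) and 2.32% of all genes. Without scaling for composition, the median of all genes moved by 0.23 and called genes were 5369 higher and 703 lower (88.4% higher, against 54.8% with scaling). Timp3 (0.56, adjusted p = 0.0138) and Mmp14 (0.44, adjusted p = 0.0479) were then called too, at values that include that shift.

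**Figure D2:**
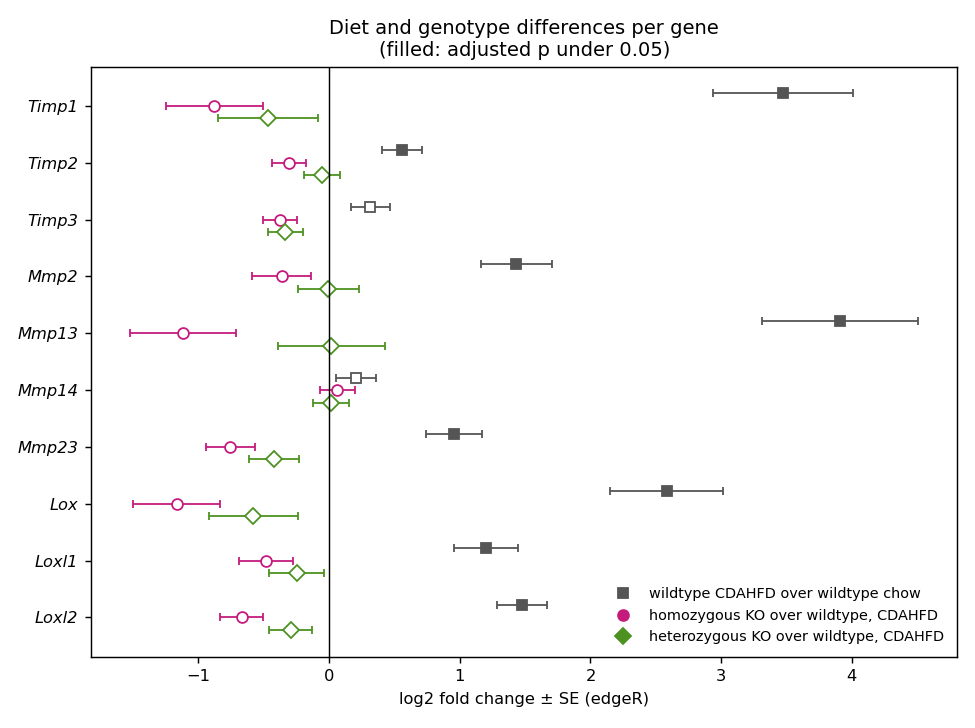
Log2 fold change ± SE (horizontal axis, edgeR) of each of the 10 genes for wildtype CDAHFD over wildtype chow (squares), homozygous over wildtype CDAHFD (circles) and heterozygous over wildtype CDAHFD (diamonds). Filled symbols passed an adjusted p of 0.05; 8 squares are filled, and no circle or diamond is.

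The plot of fold changes sets the diet and genotype differences side by side, and both use the same wildtype CDAHFD libraries, so their opposite directions are not independent. The rest of the matrix machinery was read from lists of other genes, whose counts in the diet comparison are drawn in the plot of calls per gene group. In that comparison 14.8% of all genes tested were called higher and 12.2% lower. Of 19 other MMP genes 8 were measured and 3 rose: the macrophage elastase gene Mmp12, at a mean of 40.2 CPM on CDAHFD and 0.687 on chow (log2 fold change 5.85 ± 0.69), Mmp27 (0.94 ± 0.27) and the membrane-type Mmp15 (0.73 ± 0.24). Of 3 other metalloprotease inhibitors measured, none rose and Tfpi2 fell (-0.59 ± 0.10). Of 13 other crosslinking and collagen-modifying genes 5 rose and none fell. The collagen chaperone gene Serpinh1 rose by 1.29 ± 0.22, the transglutaminase gene Tgm2 by 0.87 ± 0.16, the prolyl hydroxylation partner Crtap by 0.56 ± 0.11 and the collagen glycosyltransferase gene Colgalt1 by 0.61 ± 0.13.

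Of 6 genes that process procollagen 3 rose and 1 fell, beside 14.8% called higher and 12.2% lower of all genes tested. The procollagen N-proteinase gene Adamts2 rose by 1.29 ± 0.17, Adamts14 by 0.76 ± 0.27 and the enhancer Pcolce by 0.65 ± 0.17, whereas the C-proteinase gene Bmp1 fell (-0.58 ± 0.13). Of 15 ADAM and ADAMTS proteases 5 rose and none fell, among them Adam8 (2.66 ± 0.43), Adamts12 (1.46 ± 0.32), Adamts1 (0.76 ± 0.20) and the sheddase gene Adam10 (0.52 ± 0.10). In the plasminogen system 4 of 7 rose, among them the urokinase receptor gene Plaur (2.65 ± 0.39) and the activator genes Plat (2.04 ± 0.30) and Plau (1.71 ± 0.35). All 5 cathepsin genes rose, led by Ctss (1.84 ± 0.21), with Ctsd at 0.82 ± 0.14, Ctsl at 0.70 ± 0.11 and Ctsb at 0.64 ± 0.12. Of 15 collagens and elastic fibre genes, the substrates of these enzymes, 13 rose, including the fibrillar Col1a1 (2.60 ± 0.28), Col3a1 (2.12 ± 0.22) and Col1a2 (1.97 ± 0.24) and the basement membrane Col4a1 (1.53 ± 0.17). Of 4 collagen receptors and clearance genes 2 rose, Mrc2 (1.21 ± 0.25) and Ddr1 (1.09 ± 0.17). The median log2 fold changes were 1.71 for the plasminogen system, 1.08 for the collagens, 0.49 for other MMPs, 0.40 for other crosslinkers and -0.49 for other inhibitors.

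**Figure D3:**
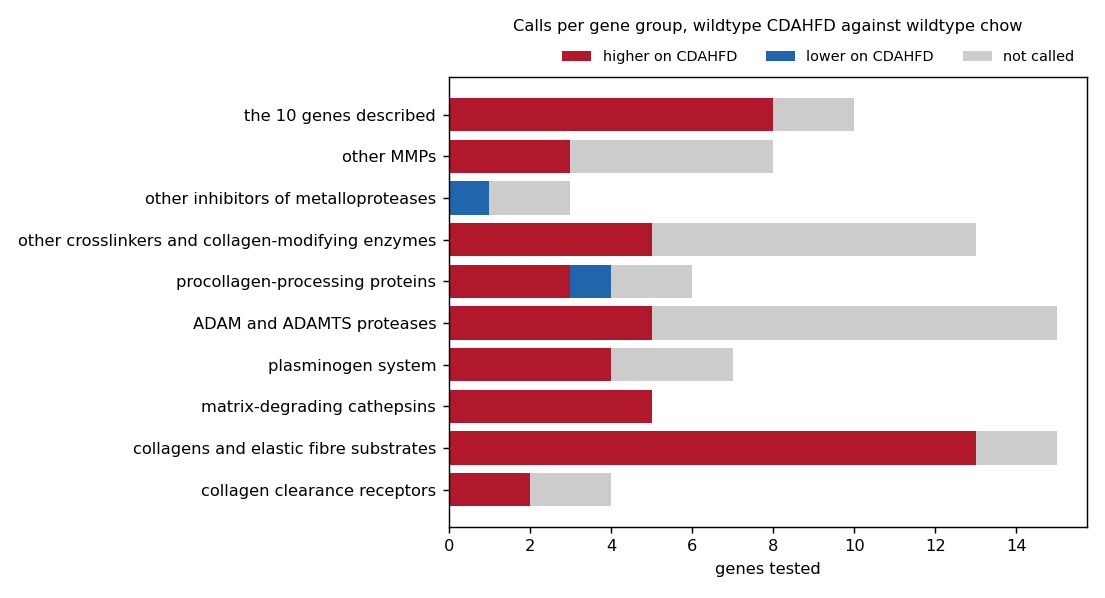
Number of genes tested (horizontal axis) in each gene group that were higher, lower or not called in wildtype CDAHFD against wildtype chow livers, by edgeR. The 10 genes described had 8 higher and 0 lower, and the 15 collagen and elastic fibre genes 13 higher and 0 lower. Of all genes tested 14.8% were higher and 12.2% lower.

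Markers of cell types were read in the same libraries, where 14.8% of all genes tested were called higher and 12.2% lower. Of the myofibroblast markers 3 of 3 measured were called higher, and their summed level ran from 24.6 to 79.2 CPM in wildtype CDAHFD livers and from 9.76 to 14.2 CPM in wildtype chow livers. Macrophage markers were called higher in 10 of 12 and summed to between 412 and 776 CPM on CDAHFD and between 234 and 401 CPM on chow. Neutrophil markers were called higher in 3 of 4 and portal fibroblast markers in 4 of 7. Stellate cell markers were called higher in 3 and lower in 1 of 11, with sums of 263 to 331 CPM on CDAHFD and 309 to 353 CPM on chow. Of these 11 estimates 10 were above 0, with a median log2 fold change of 0.29, so the sum and most single markers differed in direction. Hepatocyte markers were called lower in 3 of 6. One lymphocyte and 1 bile duct marker of 7 and 5 were called higher, no endothelial or mesothelial marker was called in 7 and 4, the 1 acinar pancreas marker tested was not called, and no adipocyte marker passed the filter, with Lep at 0 in all 26 libraries. The part of these shifts in the differences of the 10 genes was not tested.

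In homozygous Mtarc1 knockout livers on CDAHFD 9 of the 10 transcripts had estimates below those of wildtype CDAHFD livers, and none was called by edgeR. The crosslinker gene Lox stood at 44.6% of the wildtype CDAHFD mean, Mmp13 at 46.3%, Timp1 at 54.7%, Mmp23 at 59.4% and Loxl2 at 63.0%. Mmp14 stood at 104%. edgeR called 0 of the 10 and 1 gene in all, Mtarc1 itself (0.00585%). At an unadjusted p under 0.05 there were 8 of the 10 and 9.97% of all genes, DESeq2 called 2 of the 10 (Mmp23 and Loxl2) and 0.465% of genes, and limma voom called 0 of the 10 and 0.00585% of genes. The median log2 fold change was -0.58 over the 10 genes and 0.01 over all genes.

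Timp1 ranged from 0.821 to 3.88 CPM with a median of 1.81 in homozygous livers and from 1.73 to 7.23 CPM with a median of 2.80 in wildtype CDAHFD livers. The ranges overlapped, with 4 of 8 homozygous livers under the lowest wildtype liver, and the log2 fold change was -0.88 ± 0.37 (SE; edgeR adjusted p = 0.42). Timp2 ranged from 13.1 to 18.7 CPM with a median of 15.8 in homozygous and from 14.6 to 29.7 CPM with a median of 18.4 in wildtype CDAHFD livers (-0.31 ± 0.13, edgeR adjusted p = 0.426). Timp3, which the diet had not moved past the threshold, ranged from 12.9 to 19.6 CPM with a median of 14.2 in homozygous and from 17.3 to 24.5 CPM with a median of 18.6 in wildtype CDAHFD livers. For Timp3 6 of 8 homozygous livers lay under the lowest wildtype liver, with a log2 fold change of -0.37 ± 0.13 (edgeR adjusted p = 0.311).

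Mmp23 was the gene among the 10 whose homozygous and wildtype CDAHFD livers did not overlap. It ranged from 1.64 to 2.65 CPM with a median of 2.34 in the 8 homozygous livers and from 2.73 to 5.71 CPM with a median of 3.40 in the 6 wildtype CDAHFD livers. All homozygous livers lay below all wildtype CDAHFD livers for 0.0935% of genes tested. The gap between the highest homozygous and the lowest wildtype value was small, the log2 fold change was -0.75 ± 0.18, and the edgeR adjusted p was 0.165 (0.0323 with DESeq2). Mmp13 ranged from 0.461 to 4.12 CPM with a median of 2.66 in homozygous and from 2.05 to 8.92 CPM with a median of 4.37 in wildtype CDAHFD livers. All 8 homozygous livers were below the wildtype mean but only 3 below the lowest wildtype liver (-1.12 ± 0.40, edgeR adjusted p = 0.323). Mmp2 ranged from 4.06 to 9.29 CPM with a median of 6.44 in homozygous and from 4.75 to 14.97 CPM with a median of 6.43 in wildtype CDAHFD livers, with near-equal medians and a log2 fold change of -0.36 ± 0.23 (edgeR adjusted p = 0.641). Mmp14 ranged from 45.04 to 84.6 CPM with a median of 62.6 in homozygous and from 51.6 to 78.7 CPM with a median of 58.6 in wildtype CDAHFD livers (0.06 ± 0.13, edgeR adjusted p = 0.931).

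Lox ranged from 1.05 to 2.87 CPM with a median of 1.73 in homozygous and from 1.42 to 9.16 CPM with a median of 2.57 in wildtype CDAHFD livers. Only 2 homozygous livers lay under the lowest wildtype one, although the log2 fold change was -1.17 ± 0.33 (edgeR adjusted p = 0.21). Loxl1 ranged from 3.49 to 6.87 CPM with a median of 5.07 in homozygous and from 4.58 to 11.1 CPM with a median of 5.77 in wildtype CDAHFD livers (-0.48 ± 0.21, edgeR adjusted p = 0.423). Loxl2 was tightly grouped in homozygous livers, from 7.34 to 9.46 CPM with a median of 8.44, against 8.91 to 23.5 CPM with a median of 10.4 in wildtype CDAHFD livers. Of the 8 homozygous livers 7 lay under the lowest wildtype liver, with a log2 fold change of -0.67 ± 0.16 and an edgeR adjusted p of 0.165 (0.0391 with DESeq2). Without wildtype CDAHFD replicate 3 that log2 fold change was -0.43 and its edgeR adjusted p 0.475.

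The genotype differences lay mostly in the 9000 libraries, as the plot of differences within each range shows. There (2 homozygous and 3 wildtype CDAHFD libraries) all 10 genes were lower in homozygous livers, with a median log2 difference of -0.90. In the 11000 range (6 and 3 libraries) 5 of the 10 were lower and the median was -0.06. Fitted on the 11000 libraries alone, edgeR gave 0 of the 10 and 3.13% of genes at an unadjusted p under 0.05 in this comparison. Lox differed by -1.75 in the 9000 range and 0.05 in the 11000 range. Timp1 differed by -1.61 and 0.10, Mmp2 by -0.74 and 0.16, and Loxl1 by -0.92 and 0.01 in the same order. The other genes except Mmp14 were lower in both ranges: Mmp13 at -2.43 and -0.43, Mmp23 at -0.88 and -0.38, Loxl2 at -0.92 and -0.24, Timp3 at -0.61 and -0.27, and Timp2 at -0.45 and -0.13.

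**Figure D4:**
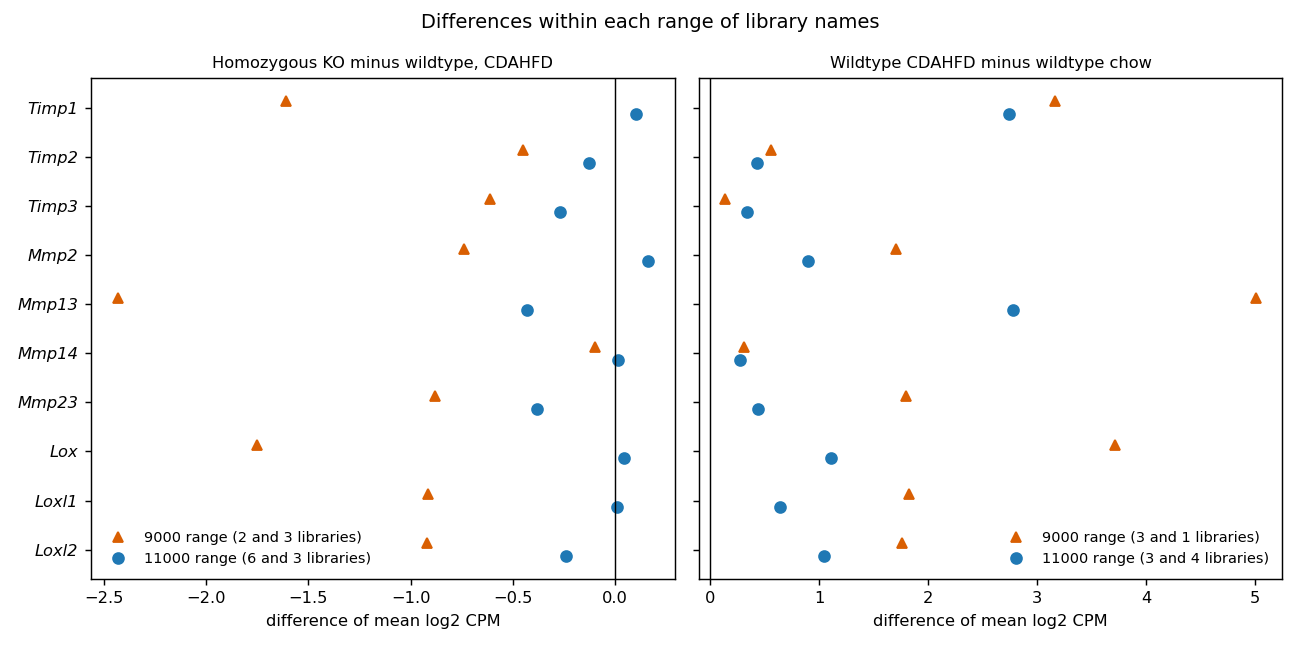
Difference of mean log2 CPM (horizontal axis) of each of the 10 genes within the 9000 range (triangles) and the 11000 range (circles) of library names, for homozygous minus wildtype CDAHFD livers (left) and wildtype CDAHFD minus wildtype chow livers (right). On the left all 10 triangles and 5 of 10 circles lie below 0; on the right all symbols lie above 0.

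A test of whether the homozygous difference itself differed between the ranges, chosen after the values were seen, was run in edgeR over the 21 CDAHFD libraries. It called 0 of the 10 genes and 0 of 16730 genes (0%), with adjusted p-values of at least 0.944 for the 10. At an unadjusted p under 0.05 there were 5 of the 10 (Timp1, Mmp2, Lox, Loxl1 and Loxl2) and 4.96% of all genes. Between the wildtype CDAHFD libraries themselves, those in the 9000 range were higher than those in the 11000 range for every gene but Mmp14. On the log2 scale the differences were 1.91 for Lox, 1.70 for Timp1, 1.20 for Mmp13, 0.97 for Mmp2 and 0.88 for Loxl1. Mmp23 differed by 0.76, Loxl2 by 0.74, Timp2 by 0.31, Timp3 by 0.10 and Mmp14 by -0.26. Those differences had edgeR adjusted p-values of at least 0.356. What the 2 ranges mark was not tested.

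In the wider lists edgeR called no gene in homozygous against wildtype CDAHFD livers, and the median of each of the 8 lists other than the metalloprotease inhibitors was below 0. Over all genes, 9.97% had an unadjusted p under 0.05. Among 15 collagens and elastic fibre genes 0 were called by edgeR, 12 had an unadjusted p under 0.05, DESeq2 called 4 (Col1a2, Col3a1, Col4a2 and Col5a1) and voom none, and the median was -0.54. The gene with the lowest p was Col4a2 (-0.60 ± 0.13, edgeR adjusted p = 0.165). Mmp12 averaged 13.5 CPM in homozygous and 40.2 CPM in wildtype CDAHFD livers (-1.58 ± 0.43, edgeR adjusted p = 0.202), with 1 of 8 other MMP genes at an unadjusted p under 0.05. Adam8 averaged 1.88 CPM in homozygous and 4.87 CPM in wildtype CDAHFD livers (-1.38 ± 0.33, edgeR adjusted p = 0.165), in a group with 5 of 15 at an unadjusted p under 0.05. Adamts2 stood at -0.60 ± 0.15 (edgeR adjusted p = 0.165), in a group with 2 of 6. DESeq2 called Adam8 and Adamts2 but not Mmp12, and voom none of them.

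In the other groups no gene was called by edgeR, DESeq2 or voom, and unadjusted p-values under 0.05 were found in 4 of 13 other crosslinkers, 3 of 7 plasminogen genes, 3 of 5 cathepsins, 1 of 4 clearance receptors and 1 of 3 inhibitors. Their lowest p-values belonged to Serpinh1 (-0.56 ± 0.19), Plat (-0.69 ± 0.24), Ctss (-0.63 ± 0.18), Ddr1 (-0.32 ± 0.14) and Tfpi2 (0.20 ± 0.09). Over all genes, the share at an unadjusted p under 0.05 was 9.97%. Summed myofibroblast markers ran from 17.1 to 27.2 CPM in homozygous and from 24.6 to 79.2 CPM in wildtype CDAHFD livers, and summed macrophage markers from 339 to 508 CPM in homozygous and from 412 to 776 CPM in wildtype CDAHFD livers. edgeR called no marker of any cell type list, and 3 of 3 myofibroblast and 8 of 12 macrophage markers had an unadjusted p under 0.05. DESeq2 called 2 of each (Acta2 and Tagln, Trem2 and Gpnmb), and voom none. Stellate cell sums were 204 to 289 CPM in homozygous and 263 to 331 CPM in wildtype CDAHFD livers, with 11 of 11 estimates below 0 and 5 at an unadjusted p under 0.05. The part of these markers in the lower levels of the 10 genes was not tested.

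In heterozygous livers, which keep 1 Mtarc1 copy, no transcript of the 10 was called either. edgeR called 0 of the 10 genes and 0% of all genes in heterozygous against wildtype CDAHFD livers. Mtarc1 itself, at -0.55 ± 0.15, was not called there either (edgeR adjusted p = 0.569), so a missing call does not show that a gene was unchanged. At an unadjusted p under 0.05 there were 2 of the 10 (Timp3 and Mmp23) and 8.44% of genes, while DESeq2 called 0 of the 10 and 0.0117% of genes and voom 0 of the 10 and 0%. The median log2 fold change was -0.27 over the 10 genes and -0.0066 over all genes.

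Timp3 ranged from 10.3 to 21.4 CPM with a median of 15.6 in heterozygous and from 17.3 to 24.5 CPM with a median of 18.6 in wildtype CDAHFD livers (-0.33 ± 0.14, edgeR adjusted p = 0.569). Mmp23 ranged from 2.38 to 3.46 CPM with a median of 2.65 in heterozygous and from 2.73 to 5.71 CPM with a median of 3.40 in wildtype CDAHFD livers (-0.42 ± 0.19, edgeR adjusted p = 0.569). Both genes' ranges overlapped. Mmp13 ranged from 2.46 to 10.4 CPM with a median of 3.85 in heterozygous and from 2.05 to 8.92 CPM with a median of 4.37 in wildtype CDAHFD livers, with a log2 fold change of 0.02 ± 0.41. Mmp2 (-0.0066 ± 0.23), Mmp14 (0.02 ± 0.14) and Timp2 (-0.06 ± 0.14) had estimates smaller than their SE. Lox (-0.58 ± 0.34), Timp1 (-0.47 ± 0.38), Loxl2 (-0.29 ± 0.17) and Loxl1 (-0.25 ± 0.21) were lower in the mean, with overlapping ranges. By range of library names, all 10 genes were lower in heterozygous livers in the 9000 range (3 and 3 libraries, median -0.55) and 9 of 10 were higher in the 11000 range (4 and 3 libraries, median 0.15), Timp3 being lower in both. The test of that difference between ranges called 0 of the 10 genes and 0% of all, with adjusted p-values of at least 0.493, and 6 of the 10 and 9.58% of genes had an unadjusted p under 0.05.

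In the wider lists no gene was called by edgeR, DESeq2 or voom in heterozygous against wildtype CDAHFD livers. Over all genes, 8.44% had an unadjusted p under 0.05. Of the collagens and elastic fibre genes 4 of 15 had an unadjusted p under 0.05, led by Fbln2 (-0.52 ± 0.23), of the procollagen-processing genes 2 of 6, led by Pcolce (-0.41 ± 0.15), of other crosslinkers 1 of 13, Loxl3 (-0.45 ± 0.17), and of other MMPs 1 of 8, Mmp19 (0.35 ± 0.15). No gene of the remaining lists did, and their lowest p-values belonged to Adam15 (-0.35 ± 0.18), Ctsk (-0.33 ± 0.19), the plasminogen gene Plg (0.26 ± 0.16), Pzp (0.29 ± 0.19) and Mrc1 (-0.14 ± 0.12). Summed myofibroblast markers ran from 20.2 to 42.2 CPM in heterozygous and from 24.6 to 79.2 CPM in wildtype CDAHFD livers, with 3 of 3 at an unadjusted p under 0.05. Such p-values were found in 2 of 11 stellate cell, 1 of 7 portal fibroblast, 1 of 7 endothelial and 0 of 12 macrophage markers. No marker of the other cell type lists had one.

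Homozygous against heterozygous livers, which share no wildtype library, gave 9 of 10 genes below 0 with a median of -0.34. edgeR called 0 of the 10 genes and 0.00585% of all genes, with 2 of the 10 (Mmp13 and Loxl2) and 7.13% of genes at an unadjusted p under 0.05. DESeq2 called 0 of the 10 and 0.106% of genes, and voom 0 of the 10 and 0.00585%. Mmp13 ranged from 0.461 to 4.12 CPM with a median of 2.66 in homozygous and from 2.46 to 10.4 CPM with a median of 3.85 in heterozygous livers, with a log2 fold change of -1.13 ± 0.39 and an edgeR adjusted p of 0.505. Its difference was -1.77 in the 9000 range (2 and 3 libraries) and -1.16 in the 11000 range (6 and 4 libraries). Loxl2 ranged from 7.34 to 9.46 CPM with a median of 8.44 in homozygous and from 9.08 to 13.2 CPM with a median of 10.4 in heterozygous livers (-0.38 ± 0.16, edgeR adjusted p = 0.676), and differed by -0.38 in the 9000 range and -0.36 in the 11000 range. All 10 genes were lower in the 9000 range (median -0.36), and 8 of 10 in the 11000 range (median -0.37), where Timp3 and Mmp14 were at 0.05 and 0.02. Among the wider lists, with no call by edgeR, DESeq2 or voom, Mmp12 (-1.56 ± 0.41), Adam8 (-1.19 ± 0.32), Plaur (-0.60 ± 0.28), P4ha2 (-0.42 ± 0.14), Pcolce2 (0.41 ± 0.18), Ctsd (-0.40 ± 0.12), Col4a2 (-0.37 ± 0.13), Ddr1 (-0.24 ± 0.14) and Tfpi2 (0.09 ± 0.08) had the lowest p of their lists. Unadjusted p-values under 0.05 were found in 4 of 15 collagens and elastic fibre genes, 3 of 5 cathepsins and 3 of 13 other crosslinkers, and in 6 of 12 macrophage and 0 of 3 myofibroblast markers.

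Against wildtype chow livers, where both diet and genotype differ, edgeR called 6 of the 10 genes higher in homozygous CDAHFD livers (23.1% of all genes called, 12.3% higher) and 8 higher in heterozygous CDAHFD livers (37.2% of all genes called, 19.3% higher). The 6 were Timp1, Mmp2, Mmp13, Lox, Loxl1 and Loxl2, and heterozygous livers added Timp2 and Mmp23. Timp1 was 2.59 ± 0.52 higher in homozygous and 3.00 ± 0.53 higher in heterozygous than in chow livers on the log2 scale. Mmp13 was 2.79 ± 0.59 and 3.93 ± 0.59 higher in the same order, Lox 1.42 ± 0.42 and 2.00 ± 0.42, Loxl2 0.81 ± 0.18 and 1.18 ± 0.19, and Mmp2 1.07 ± 0.26 and 1.43 ± 0.27. These comparisons share the 5 chow livers with each other and with the wildtype diet comparison. DESeq2 called the same 6 and 8 genes (25.5% and 39.2% of all genes). limma voom called the same 8 in heterozygous livers (36.3%) but 4 in homozygous livers (21.9%), where Lox (1.404, voom adjusted p = 0.0627) and Loxl1 (0.73, voom adjusted p = 0.0544) missed the threshold.

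Within the 11000 range, all 10 genes were above chow in the mean in homozygous livers (6 and 4 libraries, median log2 difference 0.72) and in heterozygous livers (4 and 4 libraries, median 0.99). Within the 9000 range, which holds 1 chow library, 9 of 10 were above it in homozygous livers (2 libraries, median 0.91) and in heterozygous livers (3 libraries, median 1.22), with Timp3 at -0.48 and -0.25. Timp1 differed from chow by 1.55 in the 9000 range and 2.84 in the 11000 range in homozygous livers, and by 2.04 and 3.29 in heterozygous livers. Lox differed by 1.96 and 1.15 in homozygous and by 2.74 and 1.57 in heterozygous livers in the same order of ranges. Fitted on the 11000 libraries alone, edgeR called the same 6 genes in homozygous livers (17.2% of all genes) and 7 of the 8 in heterozygous livers (25% of all genes), without Mmp23 (0.42, edgeR adjusted p = 0.163). On the 9000 libraries alone edgeR called 0 of the 10 in either genotype, and 0.0389% of all genes in homozygous and 0.156% in heterozygous livers. At an unadjusted p under 0.05 there were 4 of the 10 and 9.84% of genes in homozygous livers, and 7 of the 10 and 15.3% in heterozygous livers.

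Mmp23 ranged from 1.64 to 2.65 CPM in homozygous livers, which is within the chow range of 1.29 to 2.91 CPM, and its log2 fold change over chow was 0.20 ± 0.21 (edgeR adjusted p = 0.508), against 0.54 ± 0.21 in heterozygous livers (edgeR adjusted p = 0.046). In contrast, all 8 homozygous livers lay above every chow liver for Timp1, Lox and Loxl2, as did 4.61% of genes, and all 7 heterozygous livers did so for Timp1, Mmp2, Mmp13, Lox and Loxl2, as did 7.58% of genes. The calls of Loxl1 in homozygous livers (0.72 ± 0.23, edgeR adjusted p = 0.0266) and of Mmp23 in heterozygous livers were lost when single libraries were left out. The call of Mmp23 was also lost with the range of library names as a covariate (0.48, edgeR adjusted p = 0.0744), in a fit of these 2 groups alone (0.53, 0.0557), with a replicate block (0.57, 0.0639), without a low-count filter (0.57, 0.0614) and with a stricter one (0.52, 0.0506). Loxl1 was at 0.65 without chow replicate 1 (adjusted p = 0.0704) and 0.62 without chow replicate 2 (adjusted p = 0.0864). Without scaling for composition 8 and 9 of the 10 were called in homozygous and heterozygous livers, with all-gene medians moved by 0.20. Genes called in all were then 5023 higher and 627 lower in homozygous livers, against 2108 and 1845 with scaling. For heterozygous livers they were 5840 higher and 1202 lower, against 3296 and 3065 with scaling. Of called genes 88.9% and 82.9% were higher in the same order, against 53.3% and 51.8% with scaling.

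The order of the group means was therefore wildtype CDAHFD, heterozygous, homozygous, wildtype chow from high to low for 7 genes (Timp1, Timp2, Mmp2, Mmp23, Lox, Loxl1 and Loxl2). No step between neighbouring CDAHFD groups in that order was called. Medians kept the order for Timp1, Timp2, Mmp23 and Lox, but for Timp2 the wildtype CDAHFD and heterozygous medians nearly tied (18.395 and 18.390 CPM). For Mmp2 (8.12 and 6.43 CPM), Loxl1 (6.36 and 5.77) and Loxl2 (10.45 and 10.43) the heterozygous median lay above the wildtype CDAHFD median. In the 11000 range 9 of the 10 genes were higher in heterozygous than in wildtype CDAHFD livers. How many of all genes follow the order was not counted. For Mmp13 the homozygous mean was 2.41 ± 1.405 CPM (SD, n = 8), the heterozygous mean 5.26 ± 2.71 (n = 7), the wildtype CDAHFD mean 5.19 ± 2.77 (n = 6) and the chow mean 0.344 ± 0.186 (n = 5). For Timp3 the homozygous (15.2 ± 2.53 CPM), heterozygous (15.6 ± 3.37) and chow (15.8 ± 2.64) means differed by less than 1 SD, and the wildtype CDAHFD mean was highest at 19.6 ± 2.74 CPM. For Mmp14 the homozygous mean was highest, at 62.7 ± 13.4 CPM, and the chow mean lowest, at 52.1 ± 7.76 CPM.

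The balance of inhibitor and protease transcripts was read as a ratio within each library, as a description without a test. Timp1 over Mmp13 had a median of 0.881 in homozygous livers (0.537 to 4.17), 0.50 in heterozygous (0.362 to 1.03), 0.790 in wildtype CDAHFD (0.413 to 0.863) and 0.333 in chow livers (0.167 to 4.00). In chow livers these ratios rest on 1 to 15 counts of Timp1 and 3 to 12 counts of Mmp13 per library, and the highest homozygous ratio rests on 12 counts of Mmp13. Timp1 over Mmp2 had a median of 0.295 in homozygous, 0.407 in heterozygous, 0.405 in wildtype CDAHFD and 0.0769 in chow livers.

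Per kilobase of annotated exon (GENCODE M21), which allows levels to be compared between genes, Mmp14 was the most abundant of the 10 in each group, at 10.5 CPM per kb in homozygous, 10.2 in heterozygous, 10.1 in wildtype CDAHFD and 8.73 in chow livers. Timp2 came next, at 4.11, 4.89 and 5.08 CPM per kb in homozygous, heterozygous and wildtype CDAHFD livers and 3.45 in chow livers. Timp1 stood at 2.33, 3.08 and 4.25 CPM per kb in the 3 CDAHFD groups and at 0.375 in chow livers. Lox was the least abundant on CDAHFD, at 0.373, 0.561 and 0.836 CPM per kb, and Mmp13 and Lox were lowest on chow, at 0.129 and 0.140. Timp1 and Timp3 lie within introns of Syn1 and Syn3 on the opposite strand, Timp2 shares bases with Cep295nl, and Lox and Loxl2 overlap antisense genes. The sources used here do not say whether strand entered the counting. Whether reads from bases shared with these partners were kept apart is therefore not known.

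For the 8 genes called in the wildtype diet comparison, the nearest profiles among the other tested genes were found by the mean absolute difference of centred log2 CPM over the 26 libraries. Lox was closest to Col1a2 and Col1a1, the chains of type I collagen (both 0.28, where the mean deviation of Lox from its own mean was 0.71). Loxl1 was closest to Adamts2 (0.19) and Robo2 (0.20), Loxl2 to Lgmn (0.16) and Axl (0.17), and Mmp2 to Olfml3 (0.21) and Mrc2 (0.23). Timp1 was closest to Bcl2a1b (0.34) and the galectin gene Lgals3 (0.38), and Mmp13 to the chemokine gene Cxcl2 and the macrophage receptor gene Trem2 (both 0.50, with a mean deviation of 1.30 for Mmp13). Timp2 was closest to Tns3 and the laminin gene Lamc1 (both 0.14), and Mmp23 to Plcb2 (0.17) and Rinl (0.19). The mean deviation from their own mean was only 0.24 for Timp2 and 0.33 for Mmp23. It was 0.39 for Loxl2, 0.42 for Loxl1, 0.51 for Mmp2 and 1.01 for Timp1. These are descriptions over libraries that share group and depth.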

How the data were processed

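The deposited table holds estimated counts per gene, which need not be whole, for 26 liver libraries. The submitters' processing notes list cutadapt 3.5, Salmon 1.4.0 and the builds GRCm39 and mm39; the sources used here do not say how transcripts were summed to genes or whether strand was used. Symbols came from GENCODE M21 (GRCm38), which matched 92.5% of IDs, and Mtarc1 is listed there under an older symbol; there were 0 unused columns. Counts were rounded and fitted with edgeR 4.0.16 (R 4.3.3): TMM scaling, filterByExpr by group, 1 fit over the 4 groups, a robust quasi-likelihood F test, and Benjamini-Hochberg adjustment over 17104 genes. The fitted biological coefficient of variation was 21.5%. SE is the absolute log2 fold change over the square root of F; log2 CPM used a prior count of 2. Mtarc1 levels, compared with a two-sided exact test over all permutations of the samples, gave p = 0.000333 for homozygous and p = 0.00408 for heterozygous against wildtype CDAHFD livers, the first being the smallest possible. Libraries of a group differed beyond sampling noise (chi-square per degree of freedom of at least 15.4 over 74 pairs). The edgeR step was tested on simulated data.

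Alternatives were DESeq2 1.42.0, limma voom 3.58.1, other scalings and filters, leaving out each library, the range of library names as a covariate or alone, a replicate block, and fits of 2 groups; the test between ranges was added after the data were seen. Members and lists were chosen with earlier results of these data known. Named are the 10 genes, Mtarc1, per list up to 4 called genes with the lowest p (or the 1 with the lowest p), the 2 nearest profiles of each gene called on the diet, and markers at 0; Col1a2, Col3a1 and Col5a1 under DESeq2 and the markers Acta2, Tagln, Trem2 and Gpnmb were named after their values were seen. One gene that this rule selects is not reported here. Proteins were not analysed here.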

Additional observations from a re-analysis of the deposited data

Results flagged for a closer look

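Over 40 combinations of gene and group, 1 library stood apart. Mmp14 in wildtype CDAHFD replicate 6 was at 78.7 CPM, against 59.7 CPM in the next library of that group, a gap of 0.701 of the group's range. Chance alone sets about 1 in 20 groups apart in this way. Mmp14 was not called in any comparison with scaling for composition, and its highest homozygous (84.6 CPM) and heterozygous (76.3 CPM) libraries were of similar size.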

How the results depend on the processing

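Depth limits the low genes: Timp1 and Mmp13 rest on 1 to 15 and 3 to 12 counts in chow libraries. In wildtype CDAHFD against chow livers the genes called among the 10 were 8, and 8 under every left-out library (3769 to 4639 genes in all), but 4 (2264 genes) on the 11000 libraries and 3 (418 genes) on the 9000 libraries, which hold 1 chow library. Homozygous against wildtype CDAHFD gave 1 gene, with DESeq2 61 (2 of the 10), on the 9000 libraries 2, and 1 to 4 without 1 library (4 without wildtype CDAHFD replicate 4, 2 without replicate 1 or 5), with 0 of the 10 throughout leave-one-out. Heterozygous against wildtype gave 0 throughout leave-one-out and 2 genes with DESeq2, and homozygous against heterozygous 17 with DESeq2, 0 on the 9000 libraries and 1 throughout leave-one-out. Homozygous against chow gave 0 of the 10 (7 genes) and heterozygous against chow 0 of the 10 (28 genes) on the 9000 libraries, with 5 to 6 and 7 to 8 of the 10 and 2760 to 4333 and 4787 to 6769 genes without 1 library. The call of Mmp23 in heterozygous against chow livers was lost in 8 of the 12 leave-one-out fits (chow replicates 1, 2, 3 and 5, heterozygous replicates 1, 3, 5 and 6). The cause of these shifts was not tested.

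Log2 fold changes that changed sign were, for homozygous against wildtype, Mmp14 (-0.016 with the range as covariate, -0.10 on the 9000 libraries) and, on the 11000 libraries, Timp1 (0.29), Mmp2 (0.23), Lox (0.13) and Loxl1 (0.052). For heterozygous against wildtype they were Mmp13 (-0.015) and Mmp14 (-0.0049) without scaling, Mmp2 with voom (0.069) and with the covariate (0.041), Mmp14 with the covariate (-0.0058), and Mmp13 (-0.69) and Mmp14 (-0.010) on the 9000 libraries. On the 11000 libraries they were Timp1 (0.64), Timp2 (0.058), Mmp2 (0.67), Mmp23 (0.018), Lox (0.52), Loxl1 (0.24) and Loxl2 (0.14). For homozygous against heterozygous they were Mmp14 (-0.011 with the covariate, -0.088 on the 9000 libraries) and Timp3 (0.014 on the 11000 libraries). Timp3 against chow turned in homozygous livers without scaling (0.15) and on the 11000 libraries (0.076), and in heterozygous livers without scaling (0.19), without a filter (0.014) and on the 11000 libraries (0.061). None of these was called. With 1 library left out, sign changes lay within -0.011 to 0.16 for Mmp14 in homozygous against wildtype, and in heterozygous against wildtype within -0.24 to 0.23 for Mmp13, -0.050 to 0.11 for Mmp14, -0.12 to 0.27 for Mmp2 and -0.14 to 0.10 for Timp2. They lay within -0.029 to 0.12 for Mmp14 and -0.12 to 0.056 for Timp3 in homozygous against heterozygous, and for Timp3 against chow within -0.15 to 0.0039 (homozygous) and -0.11 to 0.061 (heterozygous).

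Deviations of samples of different groups that share a number had mean correlations from -0.23 to 0.14. Samples with unlike numbers were not correlated as a reference, so these values do not settle whether the numbers pair samples. With the number as a replicate block the calls among the 10 were 8, 0, 0, 0, 6 and 7 in the 6 comparisons, and genes called were 4464, 2, 0, 1, 3119 and 5744, in the order wildtype diet, homozygous and heterozygous against wildtype, homozygous against heterozygous, and homozygous and heterozygous against chow. Under the block Mmp2 (0.072) and Mmp13 (-0.12) changed sign in heterozygous against wildtype livers.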
